A study of Mus musculus with 5 samples.

Results

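The 3 libraries described here are the control arm of a mouse study of the arginine methyltransferase Prmt1 in fat: RNA from epididymal primary adipocytes of Prmt1 f/f animals, whose genotype field reads WT. They were taken by that genotype and make up 3 of the 5 libraries of the series; the other 2, from knockout animals, are not used here. All animals were C57BL/6N and had eaten a high-fat diet for 12 weeks. The floxed Prmt1 allele is named in the titles of all 3 libraries, no Cre is named for them, and the labels give no age. Because one group is described, there is no comparison between conditions and no p-value: each value is a level with its spread. The labels do not say whether the 3 libraries came from separate mice, so that spread may be technical in part. Values are given for replicates 1, 2 and 3 in that order.

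White adipocytes store energy as triglyceride in a single large lipid droplet. They take up fatty acids released from lipoproteins by lipoprotein lipase, esterify them to glycerol, coat the droplet with perilipins, and release the fatty acids again when hormones raise cyclic AMP. They are also endocrine cells, secreting adiponectin, leptin and other proteins into the blood. The epididymal depot is the standard visceral fat pad of male mice, and it gains macrophages and matrix when mice are fed a high-fat diet.

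Poly-A RNA was sequenced, and the authors deposited an estimated count and an FPKM value (fragments per length of transcript, corrected for depth) for each RefSeq transcript; both were summed here per gene. Levels of different genes are compared in FPKM, and one gene between libraries in scaled CPM (counts relative to the library total, scaled by TMM factors). The libraries held 43580154, 56737479 and 57016997 estimated counts. Of 24531 genes in the table, 17621 had a count in at least 1 library and 11428 had a mean of at least 1 FPKM, of which 10899 reached 1 FPKM in every library. A mean of 10 FPKM was reached by 5424 genes, 100 FPKM by 724 and 1000 FPKM by 37. No gene of the mitochondrial genome is listed in the table, so the shares below are of nuclear transcripts. No library was a copy of another: between pairs, the median chi-square over genes was 9.11 to 15.5, and counting noise would give 0.455.

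The 5 genes that mark these cells were abundant in all 3 libraries. Fabp4 (chr3:10204343-10208576 on mm10), the fatty acid carrier of the adipocyte cytosol, stood at 26499, 21492 and 28529.9 FPKM. Scd1 (chr19:44394450-44407709), the desaturase that makes oleate from stearate, stood at 13914, 14069.5 and 8727 FPKM. Adipoq (chr16:23146536-23157968), which encodes adiponectin, stood at 4779, 3656 and 4075 FPKM. Lpl (chr8:68880555-68906932), lipoprotein lipase, stood at 2432, 3019 and 3199 FPKM, and Plin1 (chr7:79721164-79732776), the droplet coat protein that gates lipolysis, at 762, 836 and 621 FPKM. Plin1 was the least abundant of the 5 and still among the genes above 100 FPKM. All 21 genes of a longer adipocyte list had a mean of at least 1 FPKM, with a summed level of 69429, 58663 and 63826 FPKM. That sum lay far above those of the other cell types in every library, as given further on. The threshold of 1 FPKM alone was also met by all 23 macrophage markers.

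Few genes carried much of the RNA. The most abundant 10 genes by counts held 16.4, 15.8 and 13.6% of all counts, the top 100 held 33.0, 32.5 and 30.6%, and 436, 447 and 507 genes were enough to reach 50%. The lower concentration in replicate 3 went with Scd1, the gene with the most counts, which took 6.84% of all counts in replicate 1 (95% Wilson interval 6.83 to 6.84%), 6.92% in replicate 2 (6.91 to 6.93%) and 4.29% in replicate 3 (4.29 to 4.30%). These intervals cover counting error only and are far narrower than the spread between libraries.

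Per length, Fabp4 was first, at 25507 ± 3622 FPKM (SD, n = 3), above Car3 at 13970.0 ± 2216 and Scd1 at 12237 ± 3041. Car3 encodes the carbonic anhydrase abundant in fat and muscle, and stood at 15107, 15387 and 11416 FPKM. It lay above Scd1 within each library, although the ranges of the pair over the 3 libraries overlap. Cfd, the complement protease adipsin, stood at 9751, 3773 and 8107 FPKM, and Gsn, the actin-severing protein gelsolin, at 4599, 4751 and 4835 FPKM. Gsn differed by 1.06-fold among the libraries in scaled CPM, while Cfd differed by 2.57-fold. The ferritin subunits Fth1 and Ftl1, the elongation factor Eef1a1, the MHC class I light chain B2m and the iron carrier Trf stood among the same 30 leading genes, next to fat-cell genes such as Cidec, Retn and Cd36. Together these 30 held 19.8% of counts and 25.5% of summed FPKM on average, and 23 of them were among the first 30 of every library.

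**Figure D1:**
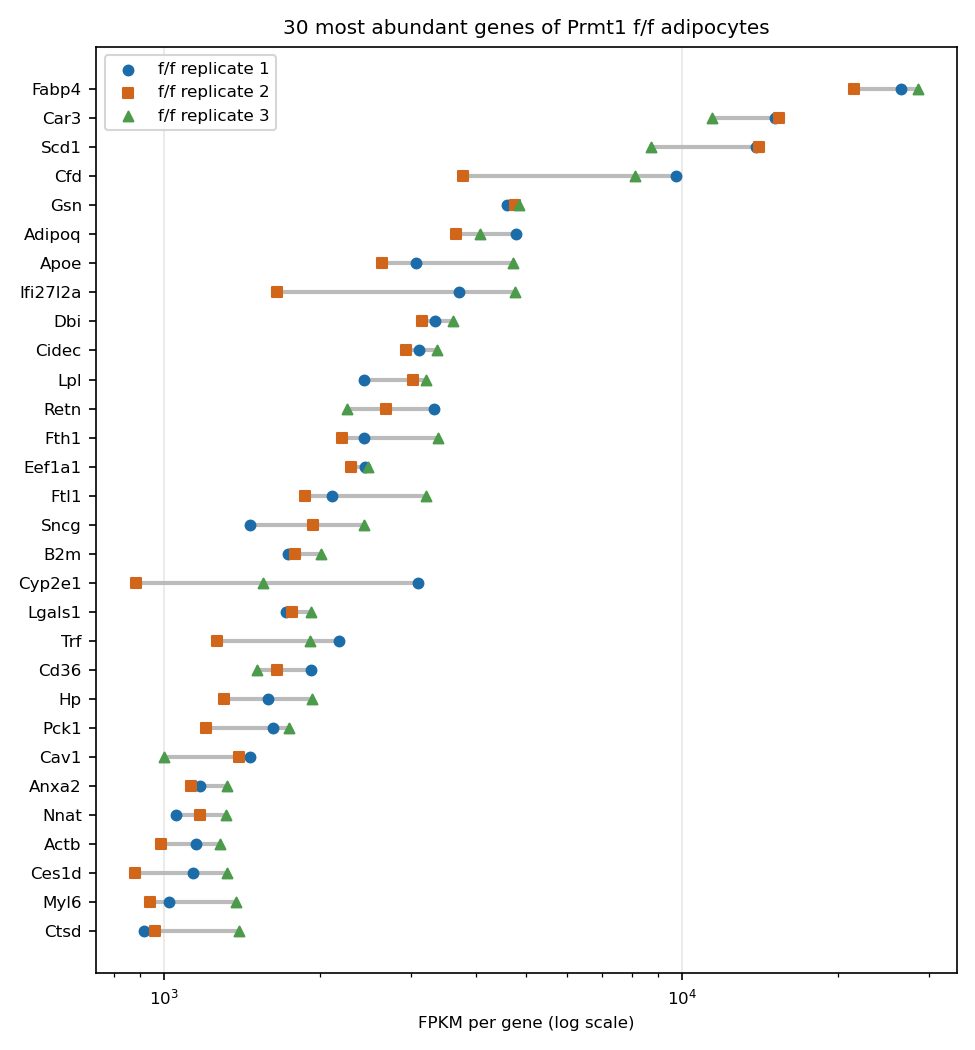
FPKM (log axis) of the 30 genes with the highest mean in the 3 Prmt1 f/f libraries; each symbol is 1 library and the grey line spans them. Fabp4, Car3 and Scd1 stand above the rest in every library, and Cfd, Ifi27l2a and Cyp2e1 show the widest spans.

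Sorted into 33 classes by function, 44.1% of the counts could be assigned, and by counts the largest share went to fatty acid and triglyceride synthesis. That class held 8.79, 8.91 and 5.8% of counts, with replicate 3 lowest. That lead rested on Scd1: with Scd1 left out of the total, the class held 1.94%. Uptake (4.39%), the cytoskeletal class (3.71%), adipokines (3.40%), lipid droplet and lipolysis (2.31%) and cytosolic ribosomal proteins (1.95%) then lay above it. Fatty acid uptake, binding and activation followed with 4.1, 3.93 and 4.34%, and lipid droplet and lipolysis genes held 2.11, 2.19 and 2.2%. The 3 lipid classes together took 14.1% ± 1.5 of counts (SD, n = 3), of which Scd1 was the largest single part. The class of actin, tubulin and intermediate filaments, which also holds annexins and Lgals1, a carbohydrate-binding galectin, held 3.49% ± 0.27, and adipokines and other secreted hormones 3.2% ± 0.45. Cell cycle genes were at the other end, with 0.0184, 0.018 and 0.0251%. Since long transcripts give more counts per molecule, the same classes were also summed in FPKM: the cytosolic ribosomal proteins, short mRNAs, held 1.84% ± 0.26 of counts but 5.28% of summed FPKM, and fatty acid and triglyceride synthesis held 4.1% of summed FPKM. On that scale it was the 5th class, and fatty acid uptake was the first, with 7.72%.

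**Figure D2:**
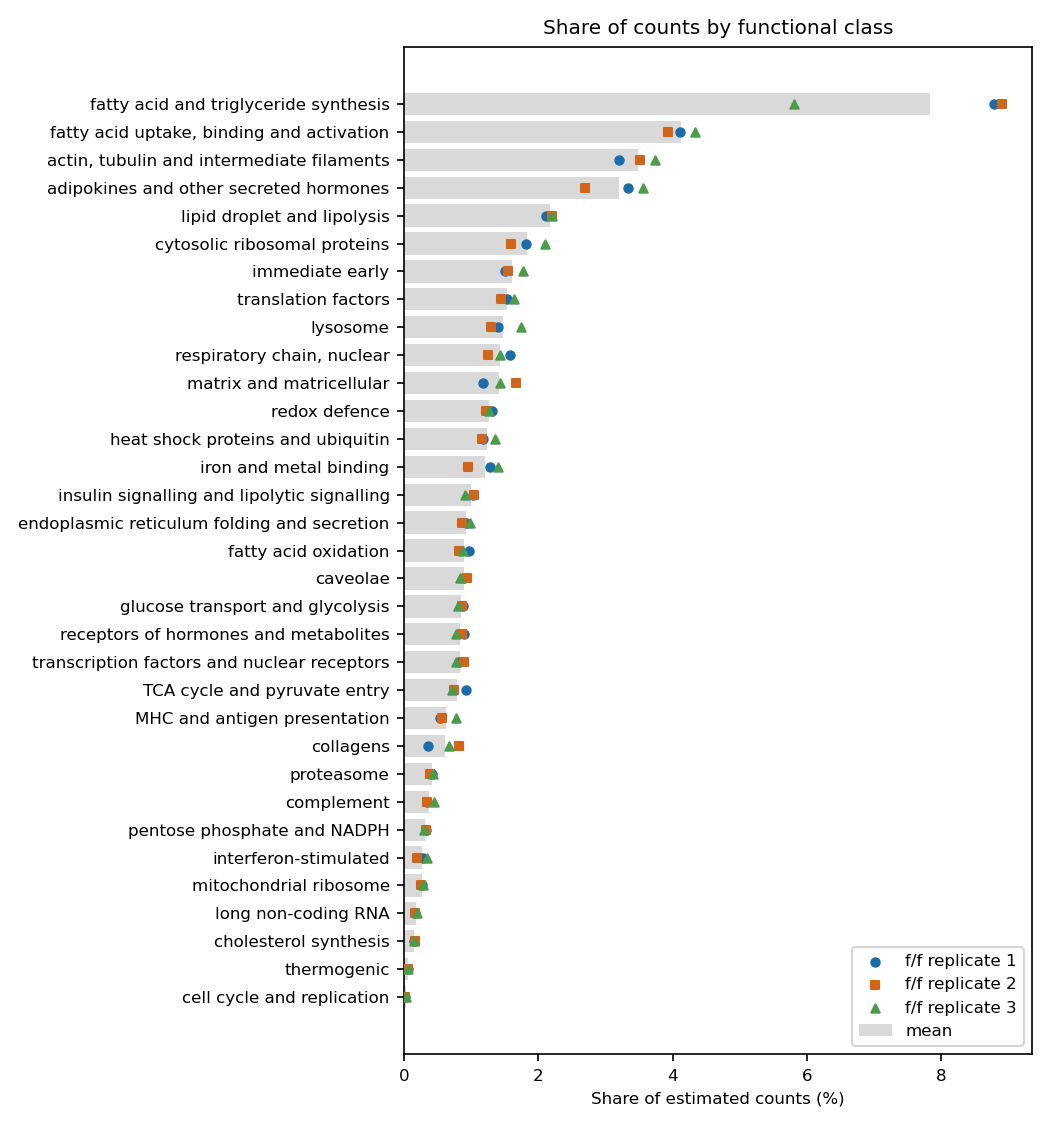
Share of all estimated counts (percent) taken by each of 33 functional classes; bars are means of the 3 Prmt1 f/f libraries and symbols the libraries. Fatty acid and triglyceride synthesis leads by counts and is lowest in replicate 3, whereas lipid droplet genes sit at 2.11, 2.19 and 2.20% in the 3 libraries.

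Among genes of fatty acid entry, Fabp4 was followed by Dbi, the acyl-CoA binding protein, at 3336, 3149 and 3614 FPKM, and by Lpl. Cd36, the fatty acid translocase of the plasma membrane, stood at 1921, 1652 and 1509.6 FPKM. Acsl1, which activates fatty acids to acyl-CoA, had 589.8, 622 and 353 FPKM and was lowest in replicate 3. Slc27a1, a fatty acid transport protein, had 242, 236 and 233 FPKM, and Angptl4, a secreted inhibitor of lipoprotein lipase, had 685, 667 and 682 FPKM. In scaled CPM these last 2 differed by only 1.117-fold and 1.08-fold. Of the 19 genes of the class with at least 100 counts, 1 (Slc27a6, a further transport protein) was 2-fold or more apart and 2 (Dbi and Angptl4) lay within 1.1-fold, where the shares over all 11759 such genes were 9.82% and 8.1%.

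Synthesis genes were less even. Dgat2, which catalyses the last step of triglyceride synthesis, stood at 986, 1256 and 808 FPKM. Pck1, which in fat feeds glycerol synthesis, had 1623, 1205 and 1744 FPKM, and Thrsp, a regulator of lipogenesis, had 861, 689.8 and 782 FPKM. Fasn, fatty acid synthase, stood at 257, 365 and 90.2 FPKM, a 4.38-fold difference in scaled CPM with replicate 3 lowest. Acaca, which makes the malonyl-CoA that Fasn uses, had 84.3, 59.7 and 31.5 FPKM, and Lpin1, the phosphatidate phosphatase, 111, 68.4 and 33.7 FPKM; replicate 3 was again the lowest. All 3 transcript rows of Lpin1 had their lowest FPKM there. In the class as a whole, 27 of the 41 genes with at least 100 counts were lowest in replicate 3, against 4475 of all 11759 such genes. The same library was also the lowest for long transcripts in general, as given further on, and the part of transcript length in these synthesis values was not tested.

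Droplet and lipolysis genes were even as a sum, and one by one their spread was near that of all genes. The class had a median difference of 1.42-fold, against 1.33-fold for all genes. Of 22 members with at least 100 counts, 2 (Hilpda and Cidea) were 2-fold or more apart, against 9.82%. Another 3 lay within 1.1-fold, against 8.1%. Cidec, which drives lipid transfer between droplets, had 3109.5, 2935 and 3358 FPKM, and Pnpla2, the adipose triglyceride lipase, had 1031, 998 and 1085 FPKM. Their scaled CPM differed by 1.06-fold and 1.02-fold. Lipe, hormone-sensitive lipase, stood at 786, 807 and 705 FPKM, and Mgll, which releases the last fatty acid from glycerol, at 343, 489.7 and 455 FPKM. G0s2, an inhibitor of the triglyceride lipase, had 329, 202 and 351 FPKM. Plin2, found on droplets of many cell types, had 378, 280.2 and 449 FPKM and did not overlap the higher levels of Plin1. Hilpda, a further droplet-associated inhibitor of that lipase, was uneven, at 128, 40.6 and 124 FPKM. For caveolae, the membrane pits abundant in fat cells, Cav1 had 1467, 1396 and 1002 FPKM and the coat protein Ptrf (Cavin1) 559.8, 703 and 873 FPKM.

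Hormone genes were led by Cfd and Adipoq. Retn, which encodes resistin, had 3317, 2683 and 2259.8 FPKM, and Apoe, an apolipoprotein also made by macrophages, had 3060.2, 2632 and 4709 FPKM. Hp, haptoglobin, stood at 1589, 1306 and 1933 FPKM, and Rbp4, the retinol carrier, at 864, 978 and 735 FPKM. Lep, which encodes leptin, was more modest at 297, 928 and 659 FPKM and was lowest in replicate 1, a difference of 3.15-fold. Sfrp5, a secreted Wnt antagonist, was also lowest in replicate 1, with 113, 498 and 481 CPM after scaling, a difference of 4.42-fold. Of 50 genes of this class with at least 100 counts, 18 were 2-fold or more apart, against 9.82% of all genes, and the median difference was 1.60-fold, against 1.33-fold.

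Upstream sequences are shown for 3 leading hormone genes and for Cyp2e1, the gene with the widest spread among the 30 most abundant. Each is the 250 bases before the RefSeq gene start on GRCm38.p6, read 5′ to 3′ on the plus strand, with the motifs found in capitals. The letters searched were TATAAA on the sense strand in the last 50 bases, and CCAAT and GGGCGG anywhere on both strands, a reverse-strand CCAAT reading ATTGG. Adipoq lies at chr16:23146286-23146535, Retn at chr8:3655520-3655769, Cfd at chr10:79890603-79890852 and Cyp2e1 at chr7:140763569-140763818.
Adipoq: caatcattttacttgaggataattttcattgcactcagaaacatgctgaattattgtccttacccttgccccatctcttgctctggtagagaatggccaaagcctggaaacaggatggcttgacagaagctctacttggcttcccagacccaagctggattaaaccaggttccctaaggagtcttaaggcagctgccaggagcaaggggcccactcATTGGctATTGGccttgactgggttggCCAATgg
Retn: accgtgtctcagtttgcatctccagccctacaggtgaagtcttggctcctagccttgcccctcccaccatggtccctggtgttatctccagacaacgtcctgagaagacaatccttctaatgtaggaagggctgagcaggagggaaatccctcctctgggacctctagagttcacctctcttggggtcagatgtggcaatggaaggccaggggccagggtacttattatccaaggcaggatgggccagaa
Cfd: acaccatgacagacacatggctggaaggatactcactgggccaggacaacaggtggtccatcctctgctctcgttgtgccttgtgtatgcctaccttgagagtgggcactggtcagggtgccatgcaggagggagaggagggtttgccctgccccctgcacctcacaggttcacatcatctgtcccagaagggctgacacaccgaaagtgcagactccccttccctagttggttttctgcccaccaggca
Cyp2e1: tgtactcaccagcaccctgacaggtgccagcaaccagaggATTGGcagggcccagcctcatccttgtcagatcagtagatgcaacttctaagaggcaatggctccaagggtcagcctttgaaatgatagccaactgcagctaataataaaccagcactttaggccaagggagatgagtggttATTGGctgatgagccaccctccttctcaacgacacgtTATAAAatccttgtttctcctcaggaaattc
The Adipoq window holds ATTGG starting 34 and 27 bases before the gene start and CCAAT 7 bases before it. In the Cyp2e1 window, TATAAA starts 31 bases before the gene start, with ATTGG at 210 and 68 bases. Neither Retn nor Cfd has any of these letters in its window. Among 27025 promoters of the RefSeq table, 3.15% hold TATAAA in that position, 37.5% hold CCAAT and 35.4% hold GGGCGG. Among 9035 matched genes with a mean of at least 1 FPKM the shares were 1.86, 40.5 and 64.9%.

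Receptors and signalling genes included those through which hormones control the fat cell. Ghr, the growth hormone receptor, had 622, 548 and 456 FPKM, the highest mean of the receptor class. Adipor2, an adiponectin receptor, had 335, 247 and 247 FPKM. Adrb3, the β3-adrenergic receptor of rodent fat, had 301, 266 and 212 FPKM, above Adrb1 (1.21, 0.821 and 1.14 FPKM) in every library. Downstream, Prkar2b, the regulatory subunit of protein kinase A, stood at 316, 344 and 266 FPKM, and Pde3b, the phosphodiesterase through which insulin lowers cyclic AMP, at 137, 115 and 96.9 FPKM. Akt2, the main insulin-responsive AKT kinase of fat, had 101, 102 and 75.1 FPKM. Slc2a4, the insulin-responsive glucose transporter, had 57.2, 77.5 and 51.5 FPKM, a level below that of most lipid genes named here.

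Transcription factors and nuclear receptors, counted here without early-response factors such as Fos and Egr1, were less abundant than the leading enzymes. Nr1d1, the clock repressor REV-ERBα, had the highest mean of the class, at 245, 176 and 123.2 FPKM, and its spread was 2.14-fold. Pparg, the nuclear receptor that directs fat cell formation, had 143, 133 and 129 FPKM, a difference of 1.19-fold. Cebpa, which acts with Pparg in fat cell formation, had 42.0, 275 and 15.9 FPKM, and Cebpb, which acts earlier, had 25.96, 2.43 and 47.6 FPKM. Replicate 2 was high for Cebpa and low for Cebpb. The 41785 counts of Cebpa in replicate 2 sat almost wholly (41783) on 1 of its 5 transcript rows, which held 1014 and 493 counts in replicates 1 and 3, where the 5 rows shared the counts nearly evenly. For Cebpb, 1 row held all 1745 counts in replicate 1, while 3 rows shared the counts in the other libraries. The levels of both genes are therefore uncertain.

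Mitochondrial genes were most often highest in replicate 1. Atp5b, the catalytic subunit of ATP synthase, had 1214, 945 and 974 FPKM, and Cox8a, a cytochrome oxidase subunit, had 779.8, 623 and 546 FPKM. Respiratory chain genes of the nucleus held 1.58, 1.25 and 1.43% of counts, and replicate 1 was the highest in 57 of 86 genes with at least 100 counts, against 3754 of all 11759. For the TCA cycle and pyruvate entry it was the highest in 25 of 28. Pcx, pyruvate carboxylase, had 432, 342 and 312 FPKM, and Cs, citrate synthase, had 243, 191 and 145 FPKM. Of glycolysis, Aldoa, the aldolase, had 857, 993 and 854 FPKM. In fatty acid oxidation, Cpt1a, the entry enzyme of mitochondria, had 23.9, 27.7 and 25.9 FPKM. Ucp1, the uncoupling protein of brown fat, was at 0.688, 0.0637 and 0.0492 FPKM, near 0 in all 3 libraries.

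Outside the lipid classes, abundant genes included stress and iron genes. Fth1 and Ftl1, the ferritin subunits, had 2427, 2207 and 3375 FPKM and 2111, 1872 and 3204 FPKM, and the metallothionein Mt1 had 857, 629 and 1103 FPKM. Mgst1, a microsomal glutathione transferase, stood at 1159, 833 and 796 FPKM. Early-response genes were expressed in all 3 libraries: Fos had 835, 888 and 806 FPKM, Egr1 459.6, 536 and 637 FPKM and Zfp36, an mRNA decay factor, 881, 823 and 1009.8 FPKM. Their class held 1.5, 1.54 and 1.76% of counts. Ifi27l2a, an interferon-stimulated gene, had 3707, 1655 and 4760.0 FPKM and was lowest in replicate 2. Of the 30 leading genes, 5 belonged to no class: Car3, Sncg (γ-synuclein, 1463, 1936 and 2432 FPKM), Cyp2e1 (a cytochrome P450, 3095, 884 and 1555 FPKM), Nnat (neuronatin, 1054, 1171 and 1315 FPKM) and Ces1d (a carboxylesterase with lipase activity, 1135, 881 and 1324 FPKM).

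Structural and housekeeping classes each took a smaller share of counts than fatty acid synthesis or uptake, with the cytoskeletal class 3rd. With Scd1 left out of the total, the cytoskeletal class (3.71%) and ribosomal proteins (1.95%) lay above synthesis (1.94%). In summed FPKM, ribosomal proteins (5.28%) and the cytoskeletal class (4.25%) lay above fatty acid and triglyceride synthesis (4.10%). In the cytoskeletal class, Lgals1 stood at 1717, 1768 and 1923 FPKM, Anxa2, a membrane-binding annexin, at 1172, 1127 and 1323 FPKM, and Vim, the intermediate filament vimentin, at 784, 1133 and 1242 FPKM. Eef1a1, which brings tRNA to the ribosome, had 2445, 2299 and 2480.3 FPKM and differed by 1.06-fold. Rplp1, of the ribosomal stalk, led the ribosomal proteins with 892, 775 and 1085 FPKM. Of the lysosome, the protease Ctsd had 914, 961 and 1395 FPKM and Psap, the saposin precursor, 736, 740.1 and 1023 FPKM, both highest in replicate 3. Hspa8, the constitutive chaperone, had 861, 853 and 1004 FPKM, and Itm2b, the leading gene of the endoplasmic reticulum class, had 917, 890.1 and 921 FPKM. These classes each held between 0.919% ± 0.06 and 3.49% ± 0.27 of counts.

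In most gene families 1 member dominated. Of 34 families of metabolic and signalling genes, the member with the highest mean lay above the next in all 3 libraries without overlap in 31, and held at least 90% of the family's FPKM in 13. Fabp4 held 99.2% of the fatty acid binding proteins and Scd1 99.2% of the stearoyl-CoA desaturases, while Scd2 stood at 70.7, 120.0 and 49.3 FPKM. Cidec stood far above Cidea, a droplet protein typical of brown fat (2.59, 3.68 and 6.00 FPKM). The perilipins were shared: Plin4 had 924, 1075 and 983 FPKM, above Plin1 in every library, and Plin5 6.41, 4.94 and 8.89 FPKM. Members overlapped in 3 families, the glycerol-3-phosphate acyltransferases, the C/EBP factors and the ferritin subunits. Agpat9 (Gpat3) had 102, 52.9 and 66.2 FPKM, Gpam 71.2, 66.7 and 42.4 FPKM and Gpat4 64.8, 55.7 and 56.8 FPKM. Among the arginine methyltransferases, Prmt1 (chr7:44976755-44986420), the gene floxed in these mice, led with 25.97, 22.97 and 26.6 FPKM, followed by Prmt5, which makes symmetric dimethylarginine, with 14.96, 16.3 and 14.8 FPKM. By counts Prmt5 led instead, and Gpat4 led the glycerol-3-phosphate acyltransferases; the leader by counts was the one by FPKM in the other 32 families. Prmt8 is listed at 0.

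**Figure D3:**
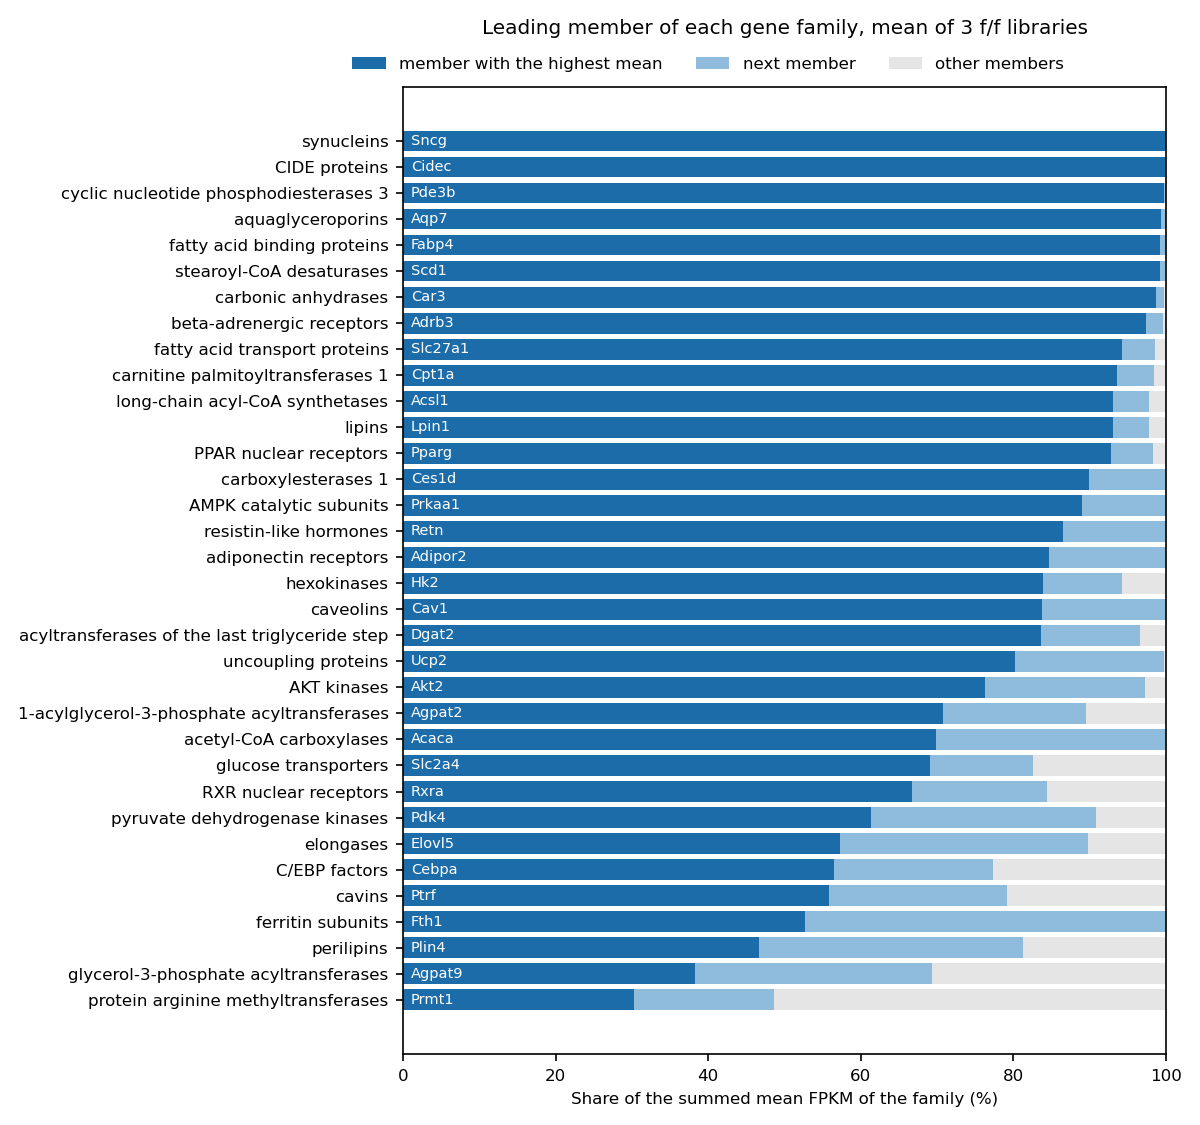
Share of each family's summed mean FPKM (percent) held by its leading member (dark, named), the next member (light) and the others (grey), from the mean of the 3 Prmt1 f/f libraries. In 13 of 34 families the leading member held at least 90%, whereas Prmt1, Agpat9 and Plin4 led families that are more evenly shared. The C/EBP bar rests on the uncertain value of Cebpa.

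Markers of other cells were present at lower levels. The 23 macrophage markers summed to 1519, 1314 and 2580.4 FPKM, led by Cd74 (344, 471 and 770.1 FPKM), which antigen-presenting cells use for MHC class II, and by the lysozyme gene Lyz2 (442, 291 and 601 FPKM). All 23 had a mean of at least 1 FPKM. Replicate 3 was the highest in 21 of the 23, against 4162 of all 11759 genes with at least 100 counts. Replicate 2 was the lowest in 20 of the 23, against 3481 of all 11759. In such bulk RNA, fewer cells of a type and less RNA per cell cannot be told apart. Endothelial markers summed to 337, 389 and 599 FPKM, with Prox1, a lymphatic marker, at 0. Replicate 1 was the lowest for 15 of the 16 endothelial genes with at least 100 counts, against 3803 of all 11759. Fibroblast and progenitor markers summed to 418, 468 and 469 FPKM, led by Col15a1 and Dcn, with a median marker at 5.78 FPKM. Mural markers summed to 394, 453 and 407 FPKM, led by Mcam and Acta2, with a median marker at 4.99 FPKM. Mesothelial markers summed to 81.2, 34.6 and 74.3 FPKM, lowest in replicate 2 for 11 of 12 genes, against 3481 of all 11759.

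Markers of blood cells and neighbouring tissues ranged from erythroid genes, near the endothelial level, to almost none. Erythroid genes, which include α-globin, summed to 571, 526 and 837 FPKM. T and B cell markers summed to 1.96, 1.85 and 4.19 FPKM, with Cd3e and Cd8b1 at 0, and granulocyte and mast cell markers to 10.04, 9.33 and 13.9 FPKM, with Mpo and Ly6g at 0. Skeletal muscle markers summed to 115, 92.2 and 151 FPKM, with Myh2 and Myh4 at 0. Only 3 of the 11 muscle markers had a mean of at least 1 FPKM, and the median marker stood at 0.119 FPKM. Acta1, Myl1 and Des led the muscle list, and Des was on the mural list too. Nerve markers summed to 10.5, 13.1 and 10.1 FPKM, with Th at 0. Of 25 markers of the epididymal epithelium, 18 had no count in any library. The list summed to 5.34, 0.398 and 1.07 FPKM, led by Crisp1, a secreted protein of the epididymis, with 283, 21 and 63 counts.

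**Figure D4:**
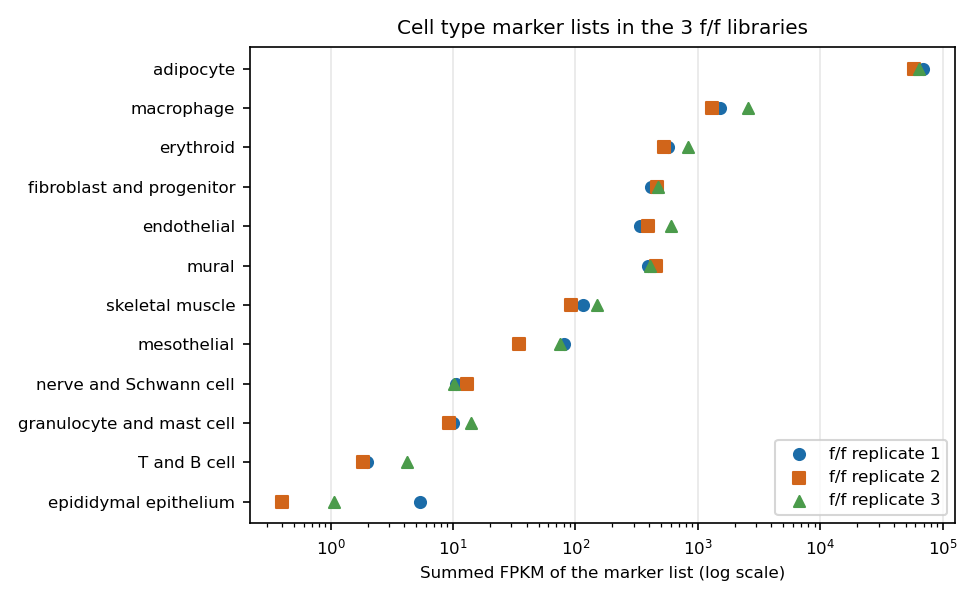
Summed FPKM (log axis) of marker lists for 12 cell types in the 3 Prmt1 f/f libraries. The adipocyte list is at 69429, 58663 and 63826 FPKM, far above every other list, and the macrophage list is highest in replicate 3.

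The spread among the 3 libraries was measured as the highest over the lowest scaled CPM in 11759 genes with a mean of at least 100 counts, where counting alone gives a coefficient of variation of at most 10%. The median gene differed 1.33-fold, with a coefficient of variation of 14.9%. At least a 2-fold difference was seen in 1155 genes, 9.82% of those tested, and a difference of at most 1.1-fold in 953, 8.1% of them. The share was larger at low counts: of genes with 100 to 300 counts 24.9% were 2-fold or more apart, against 4.75% of those with 3000 to 10000. Of genes with at least 10000 counts it was 6.82%. Replicate 3 was the highest in 567 of the 1155 genes, replicate 2 in 372 and replicate 1 in 216.

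Matrix and secreted proteins held the classes with the largest shares of uneven genes. Of 22 collagens with at least 100 counts, 15 were 2-fold or more apart against 9.82% of all genes, and 21 were lowest in replicate 1, against 3803 of all 11759 genes. Col6a1, a chain of the microfibrillar collagen around fat cells, had 60.0, 199.7 and 128 FPKM, and Col4a1, of the basement membrane, had 87.9, 211 and 236 FPKM. Among matrix and matricellular genes 25 of 64 were that far apart, with Sparc, a collagen-binding protein, at 437, 788 and 574 FPKM and Prelp, a leucine-rich proteoglycan, at 198, 535 and 272 FPKM. Endothelial markers were lowest in replicate 1 in 15 of 16, mural markers in 8 of 10 and fibroblast markers in 9 of 15, and their part in the collagen and matrix values was not tested. Complement counted 8 of 22, fatty acid and triglyceride synthesis 14 of 41, interferon-stimulated genes 9 of 33 and the cell cycle 6 of 19. Abundance was not held equal between these classes, and the share over all genes was 24.9% at 100 to 300 counts. Interferon-stimulated genes were highest in replicate 3 in 27 of 33, and MHC genes in 22 of 25, against 4162 of all 11759, with H2-D1 at 697, 703 and 949 FPKM. Most macrophage and endothelial markers were also highest in replicate 3 (21 of 23 and 13 of 16), and their part in these class values was not tested.

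Several housekeeping classes had no gene 2-fold apart, where all genes had 9.82%. None of 78 mitochondrial ribosomal proteins, 39 proteasome genes, 33 fatty acid oxidation genes, 53 genes of the endoplasmic reticulum and 25 heat shock and ubiquitin genes was that far apart. The share over all genes was 24.9% at 100 to 300 counts but 4.75% at 3000 to 10000 and 6.82% from 10000 upward. Abundance was not held equal between classes, so finding none among 25 or 33 genes shows little. The respiratory chain had 1 of 86, the cytochrome oxidase subunit Cox8b (21.2, 7.76 and 23.3 FPKM), and ribosomal proteins 2 of 84, Rps27 and its copy Rps27rt. The median difference was 1.18-fold for the proteasome and 1.18-fold for the mitochondrial ribosome. For all genes it was 1.33-fold. Of 8 caveolar genes 0 were 2-fold apart, but so few genes show little against a share of 9.82%, and their median was 1.56-fold.

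**Figure D5:**
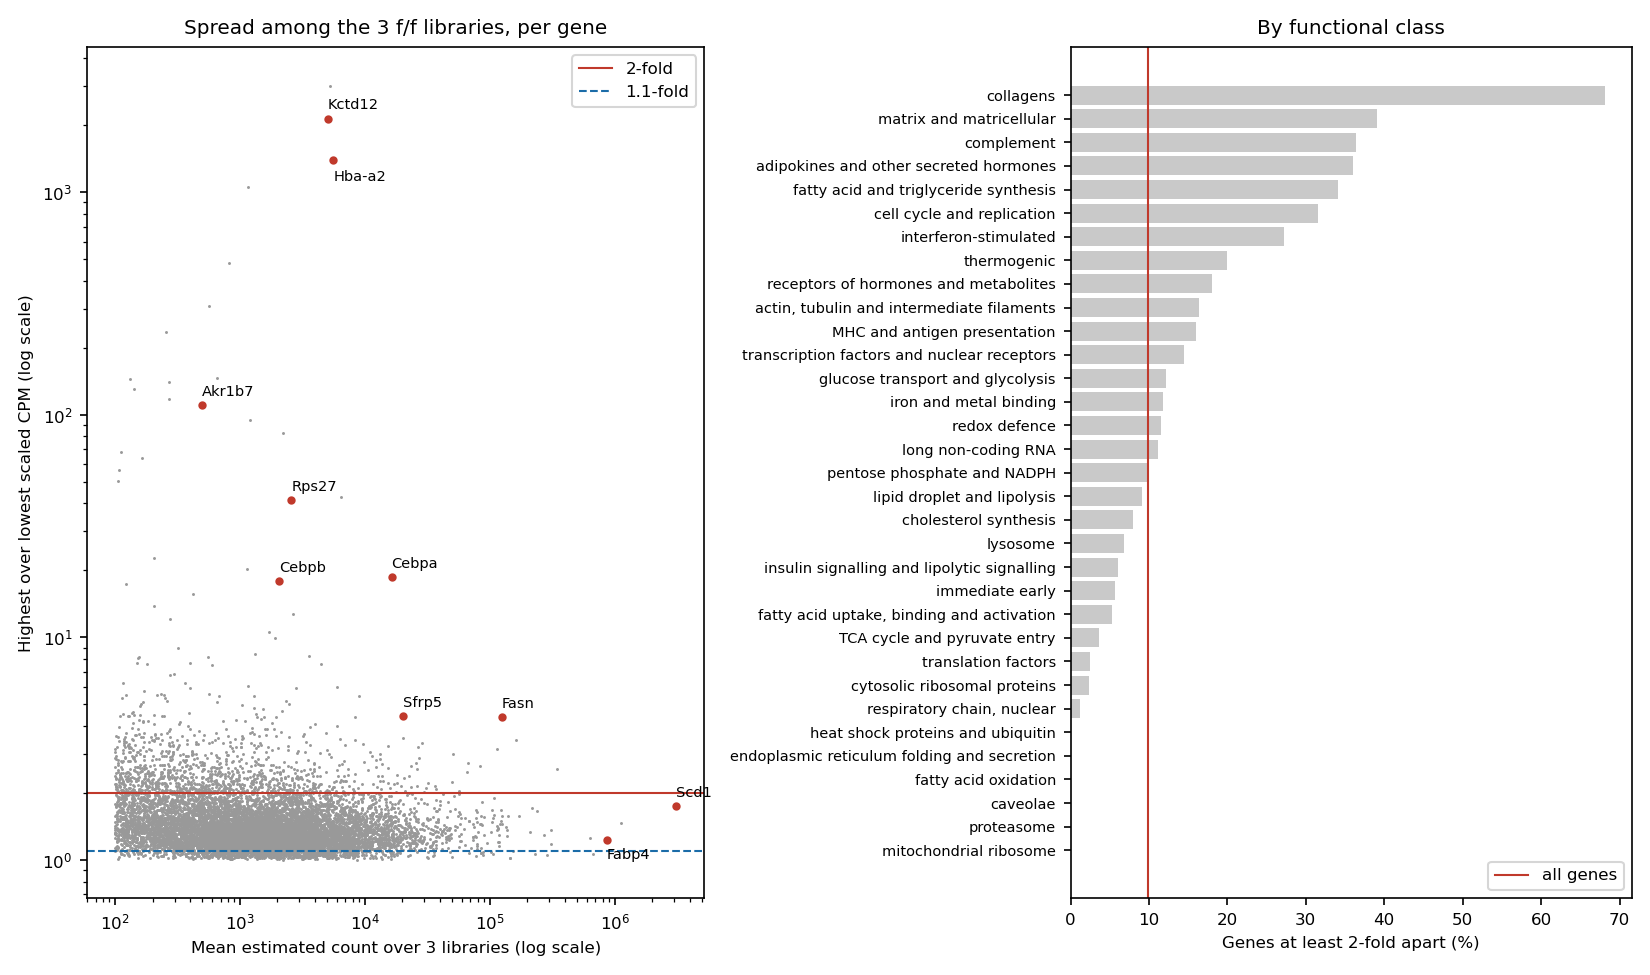
Left, highest over lowest scaled CPM among the 3 Prmt1 f/f libraries against the mean estimated count (both log axes), 1 point per gene with at least 100 counts; right, percent of each class at least 2-fold apart, with the 9.82% of all genes as a red line. Fasn, Sfrp5 and Cebpa lie above most genes of like abundance, and collagens have the largest share of the classes shown.

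The 15 most even genes included none of the 21 adipocyte markers, which shows little for so short a list. Pnpla2, 1 of those markers, differed by 1.025-fold. Rdx, the membrane-cytoskeleton linker radixin, had 166.0, 166.2 and 165.6 CPM, a 1.003-fold difference. Others of the 15, all with at least 1000 counts, were Rnf103, a ubiquitin ligase of the endoplasmic reticulum (41.6, 41.7 and 41.8 CPM), Eef1g, a subunit of elongation factor 1 (308, 308 and 305 CPM), Acad11, an acyl-CoA dehydrogenase (261, 259 and 261 CPM), and Csnk1d, a casein kinase of the clock (114, 114 and 112 CPM). The remaining 10 were Bcl7b, Larp4b, Zmynd11, Marf1, Aurkaip1, Vps16, Aebp2, Txnl4b, Trmt2a and the non-coding RNA Peg13. All 15 lay within 1.02-fold, and counting alone gives a coefficient of variation of 3.16% at 1000 counts. The 15 are the extreme of a ranked list, so their closeness is a description of these libraries.

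The widest differences lay mostly in genes with a near-identical copy. Hba-a1 and Hba-a2, which encode α-globin, had 8581, 10603 and 282 counts and 11, 11 and 16733 counts, so the copy that held the counts changed in replicate 3, while the pair's sum differed by 1.47-fold. Rps27, a ribosomal protein, had 3871, 3726 and 132 counts and its copy Rps27rt 112, 71 and 6399, and their sum differed by 1.58-fold. The copies Selenbp1 and Selenbp2 summed to a 1.05-fold difference and Eno1 with Eno1b, of glycolysis, to 1.25-fold. For 7 of the 15 genes with the widest spread (Hba-a1, Hba-a2, Rps27rt, Selenbp2, Eno1b, C1rb and Ly6c2), the sum with the copy stayed below 2-fold. The same held for Mettl7a2, Hist2h2aa2 and Nptxr, which shares its span with Npcd. The level of any single gene of these pairs is uncertain, and the pairs were chosen after their values were seen.

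Of the 15, H2-Q1, Methig1, Kctd12, Ino80d and Akr1b7 were not paired here. Kctd12, a subunit of GABA-B receptors, had 0, 6085 and 9040 counts, at least 2140.1-fold apart with a floor of 3 counts per library. Ino80d, of a chromatin-remodelling complex, had 1820, 1786 and 27 counts. H2-Q1, of MHC class I, had 909, 0 and 1568 counts and Methig1, a methyltransferase-like gene, 0, 83 and 239. How counts were assigned to Kctd12, Ino80d, H2-Q1 and Methig1 was not checked, so their levels are uncertain. Akr1b7, an aldo-keto reductase, had 854, 10 and 637 counts, low in replicate 2. Crisp1 was lowest in that library too.

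Spread also followed transcript length. For genes longer than 5000 bases the median log2 difference from the mean of the other libraries was 0.17 in replicate 2 and -0.19 in replicate 3. For genes up to 1500 bases it was -0.13 in replicate 2 and 0.13 in replicate 3. Replicate 1 stayed at 0.03 for the longest genes. Among the 2-fold genes, those lowest in replicate 3 had a median length of 4174 bases and those highest there 2503, against 2961 for all genes. Ribosomal proteins, which are short, were highest in replicate 3 in 58 of 84 and lowest in replicate 2 in 74, against 4162 and 3481 of all 11759; the part of length in that result was not tested.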

How the data were processed

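Poly-A RNA libraries (TruSeq) were sequenced on a HiSeq4000 from RNA with an integrity number above 7, per the labels' protocols. The submitters' processing notes name HISAT2 2.1.0, HISAT, Bowtie2, StringTie 1.3.4d and mm10, with no role or order. The authors deposited estimated counts as whole numbers per RefSeq transcript with no scaling between samples, and FPKM values per transcript, per the file headers. Columns were matched to samples by the sample descriptions. Of 36780 rows 1 was empty and left out, and 36779 transcripts were summed to 24531 genes. FKO columns were not used here.

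Scaled CPM used TMM factors (edgeR 4.0.16, R 4.3.3) of 0.978, 0.972 and 1.05, and ratios used a floor of 3 counts per library. The TMM and ratio steps were tested on simulated data. The simulated counts held no exchange between copies or transcript rows and no length effect, so that test does not cover these features. The common biological coefficient of variation over genes with at least 100 counts was 23.3%. With 1 group, no test was made. Exon numbers came from GENCODE M21 and promoters from RefSeq GRCm38.p6.

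The rule named the 5 markers, the 30 genes with the highest mean FPKM (Gm, Rik and similar names left out), up to 6 leading members and the most and least even member of each class, up to 4 per marker list, the 15 widest and 15 most even genes, family members and Prmt1; not every gene that meets it is reported here. Npcd, Hist2h2aa1 and other copies were added after their values were seen. Members and lists were chosen with earlier results of these data known. Near-identical and overlapping genes can share counts, and use of strand is not given in the sources used here.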

Additional observations from a re-analysis of the deposited data

How the results depend on the processing

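No paired analysis was possible because 1 group is described and no result comes from a test. Genes needed for 50% of the signal numbered 290 by FPKM, against 472 by counts. Ranking by counts kept 17 of the 30 leading genes. Without Scd1 the 3 lipid classes held 8.63% of counts, against 14.1%. The 1155 genes at least 2-fold apart became 2960 with a minimum of 1 count in each library, 400 with a mean of at least 1000 counts, and 411 to 650 when 1 library was left out, which leaves a pair and so a smaller range. The 953 genes within 1.1-fold became 3200 to 3872 when 1 library was left out. An alternative chosen after seeing the data kept multi-exon genes with no overlapping span, with Gm, Rik and similar names left out. It left 5876 genes, of which 574 (9.77%) were at least 2-fold apart and 487 within 1.1-fold. RLE, library size and upper quartile scaling and FPKM gave 1146 to 1216 genes at least 2-fold apart. On the FPKM scale 26 of 33 classes moved by more than their SD, 15 of the 33 had a larger share there, and 9 moved without Scd1. The table splits counts between copies and between transcripts of a gene, which limits single-gene values, and low counts go with wider ratios.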

Other observations

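The long non-coding RNA Neat1, the scaffold of nuclear paraspeckles, had nearly even counts, a 1.31-fold difference in scaled CPM, but 198, 215 and 44.2 FPKM. Its short transcript row held 27765, 39429 and 29 counts, and its long row 979, 929 and 53020, so replicate 3 placed the counts on the other row.

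Of 225 genes with a single exon in GENCODE, 15.1% were at least 2-fold apart and 3.11% (7 genes) at least 10-fold. Among 11228 genes with more exons the shares were 9.74% and 0.187%. Abundance was not held equal between these sets. Cebpb and Kctd12 are among the single-exon genes.

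GGGCGG was present in the 250 bases before the gene start of 67.4% of 766 genes within 1.1-fold and of 54.5% of 833 genes at least 2-fold apart, against 64.9% of all matched genes with a mean of at least 1 FPKM. TATAAA in the last 50 bases was present in 1.04% and 3.36%, against 1.86%. These are descriptions with no test, and low counts, which go with wider ratios, were not held equal between the sets.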
